A study of Homo sapiens with 4 samples.

Results

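The kinesins are the motor proteins that walk along microtubules, and 41 genes named KIF or KIFC were found on the human arrays by their gene name. They made up 59 of 34127 probes and 86 of 43118 spots on each array, other than controls, and 36 of them could be tested among 21250 genes. Of the 41 genes, 14 were placed in a class of mitotic kinesins, 15 in a class of transport kinesins and 12 in neither, by what each motor is known for. The question was how the mitotic and the transport motors compared between control cells and PAK1 deficient cells.

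Control MCF10A.B2 cells (2 arrays) were compared with MCF10A.B2 cells carrying a tetracycline-inducible shRNA against PAK1 (2 arrays, called PAK1 shRNA). MCF10A is a mammary epithelial line that is not tumorigenic, and its B2 derivative carries a chimeric HER2 (ErbB2) receptor that the dimerizer AP1510 switches on. All 4 samples, controls included, had been serum starved for 3 h and given AP1510 for 15 min before RNA was taken, and 0.5 µg RNA was labelled with Cy3 for a 1-colour Agilent array. The labels of these samples name no non-targeting shRNA, and the number of shRNA clones is not given in the sources used here. The sample titles and the methods do not say whether tetracycline or a similar inducer was given, or to which group. The labels also do not say whether the 2 samples of a group came from separate cultures, so the p-values measure only the spread between these samples, which may be technical. Values are log2 intensities after background correction and quantile normalization, a log2 fold change is PAK1 shRNA minus control, and a gene was called at an adjusted p under 0.05 (limma, Benjamini-Hochberg over all 21250 genes). In an exact permutation test (two-sided) the smallest p that 2 arrays against 2 allow for 1 gene is 0.333.

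A kinesin joins a motor domain, which splits ATP to step along the microtubule, to a tail that holds its load. Mitotic kinesins push spindle poles apart, move and align chromosomes, shorten microtubule ends or build the central spindle for cytokinesis, and many of them are made mainly in G2 and M phase. Transport kinesins carry vesicles, organelles and ciliary cargo in cells that do not divide as well as in those that do. Many genes of G2 and M phase carry in their promoter a cell cycle genes homology region (CHR), which the MuvB complex binds, and upstream of it CCAAT boxes, which NF-Y binds.

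Promoters are printed for kinesins with a large fall, to show where these motifs lie. KIF20A, KIF2C and KIF2A are printed too, as mitotic kinesins without a CHR by the letters given below. Other forms of the motif were not searched. RefSeq (GRCh38.p14) listed a promoter for 33 of the 41 genes. Each line runs 5′ to 3′ on the strand of the gene, from 100 bases before to 10 bases after the first transcription start listed, and capitals mark a CHR (TTTGAA on either strand, or TTCGAA) or a CCAAT box (CCAAT on either strand). The first 9 genes hold a CHR in the printed window. Positions count from 1 at the start, with negative numbers before it, and name the leftmost base of a motif.
KIF11, chr10:92593030-92593139, plus strand: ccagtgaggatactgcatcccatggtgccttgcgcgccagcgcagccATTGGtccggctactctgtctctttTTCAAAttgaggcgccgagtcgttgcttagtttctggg
KIF14, chr1:200620742-200620851, minus strand: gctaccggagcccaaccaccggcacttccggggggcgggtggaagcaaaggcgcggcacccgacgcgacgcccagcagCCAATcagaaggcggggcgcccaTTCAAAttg
KIF15, chr3:44761694-44761803, plus strand: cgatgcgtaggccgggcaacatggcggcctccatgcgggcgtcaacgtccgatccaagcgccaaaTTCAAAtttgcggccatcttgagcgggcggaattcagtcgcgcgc
KIF4A, chrX:70290004-70290113, plus strand: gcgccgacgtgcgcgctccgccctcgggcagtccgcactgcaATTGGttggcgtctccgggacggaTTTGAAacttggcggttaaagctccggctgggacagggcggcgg
KIF22, chr16:29790651-29790760, plus strand: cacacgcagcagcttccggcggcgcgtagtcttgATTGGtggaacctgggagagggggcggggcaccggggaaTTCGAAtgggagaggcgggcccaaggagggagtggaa
KIF23, chr15:69414249-69414358, plus strand: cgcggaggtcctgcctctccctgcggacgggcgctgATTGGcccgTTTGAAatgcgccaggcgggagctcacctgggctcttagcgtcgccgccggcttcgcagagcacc
KIFC1, chr6:33391723-33391832, plus strand: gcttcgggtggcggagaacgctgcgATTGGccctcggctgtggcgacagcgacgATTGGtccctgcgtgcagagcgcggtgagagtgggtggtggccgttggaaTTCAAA
KIF18A, chr11:28108147-28108256, minus strand: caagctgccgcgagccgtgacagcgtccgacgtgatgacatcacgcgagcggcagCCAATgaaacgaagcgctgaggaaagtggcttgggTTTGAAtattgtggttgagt
KIF24, chr9:34329259-34329368, minus strand: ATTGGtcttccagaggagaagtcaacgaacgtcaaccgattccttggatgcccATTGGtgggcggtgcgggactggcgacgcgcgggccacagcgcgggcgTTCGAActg
KIF20A, chr5:138179012-138179121, plus strand: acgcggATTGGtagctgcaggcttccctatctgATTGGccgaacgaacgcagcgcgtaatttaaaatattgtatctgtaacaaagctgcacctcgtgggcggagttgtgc
KIF2C, chr1:44739737-44739846, plus strand: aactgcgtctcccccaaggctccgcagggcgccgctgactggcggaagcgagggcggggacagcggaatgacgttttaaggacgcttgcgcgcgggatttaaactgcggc
KIF2A, chr5:62306106-62306215, plus strand: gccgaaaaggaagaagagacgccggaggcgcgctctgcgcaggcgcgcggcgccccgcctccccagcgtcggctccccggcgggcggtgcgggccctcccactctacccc
Over the whole promoter entry, 250 bases before to 50 after the start, a CHR was found in 10 of 14 mitotic kinesins, in 1 of 11 transport kinesins (KIF5B, at -140) and in 1 of 8 others (KIF24, at 2), against 16.6% of 27305 promoters of the table. A CCAAT box was found in 10 of 14, 3 of 11 and 3 of 8, against 35.7% of all promoters. The 2 sites of KIF20B lay at 25 and 31, past the end of the printed windows, and that of KIF18B lay at 3. KIF20A had no CHR by these letters, although it held 2 CCAAT boxes, and KIF2A, KIF2B and KIF2C held neither motif. Among the tested kinesins with a promoter, a CHR stood in 10 of the 12 that were lower by at least 2-fold (83.3%) and in 2 of the 16 others (12.5%). These matches describe letters in a window, and say nothing of binding.

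Mitotic kinesins were lower in PAK1 deficient cells. All 12 that could be tested passed the threshold as lower, where 32.0% of all genes did, and 10 of them were lower by at least 2-fold, where 9.14% of all genes were. In each of the 12 both PAK1 shRNA arrays lay below both control arrays, which held for 39.9% of all genes. Their median log2 fold change was -3.49 (range -5.56 to -0.38), beside a median of 0.017 over all genes tested. In a bulk sample fewer cells that make an mRNA and less of it per cell cannot be told apart. Standard errors ran from 0.07 to 0.11.

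**Figure D1:**
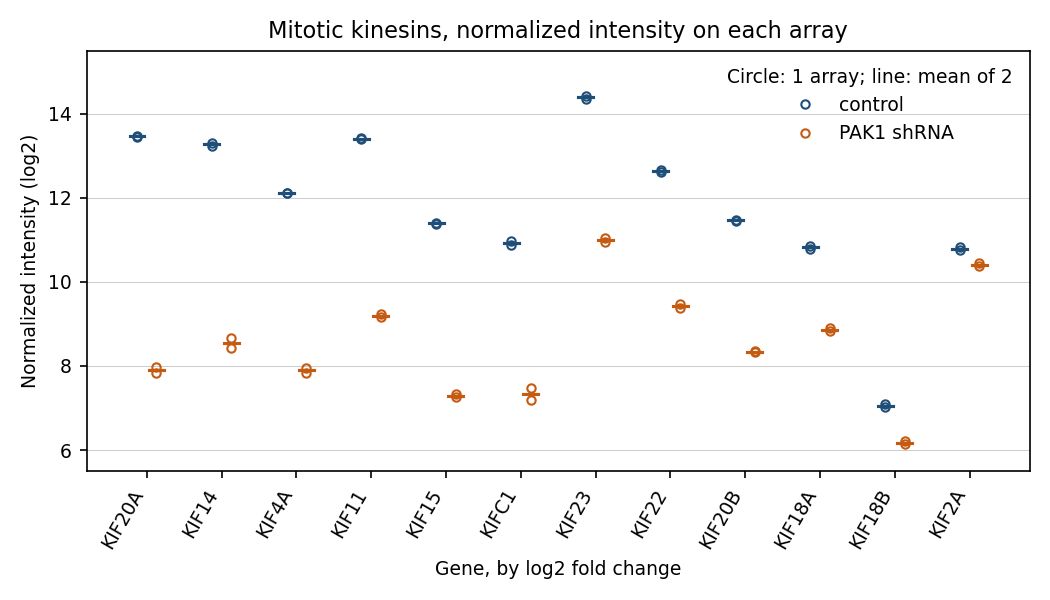
Normalized log2 intensity (vertical axis) of the 12 tested mitotic kinesins on each of the 4 arrays, ordered by log2 fold change. Circles are single arrays (2 control in blue, 2 PAK1 shRNA in orange) and short lines are group means. The groups stand apart in every gene, widest in KIF20A (-5.56) and narrowest in KIF2A (-0.38).

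The motors of cytokinesis included the widest change. KIF20A (MKLP2), which brings the chromosomal passenger complex to the central spindle, read 13.48 and 13.45 in control cells and 7.97 and 7.83 in PAK1 shRNA cells. Both control arrays lay far above both PAK1 shRNA arrays, a 47.2-fold lower level (log2 fold change -5.56, standard error 0.08, limma adjusted p = 2.42e-07), and of the 21250 genes tested 1 had a lower fold change. Its probe was printed 10 times on each array, and the spots varied little, with a coefficient of variation of 8.25% to 10.1% within an array. The mean of its raw spot signals, before any correction, stood at 14940 and 11600 in control cells, against 211.4 and 186.9 in PAK1 shRNA cells. Raw signals are not scaled between arrays. That of KIF1C, with a normalized fold change of -0.16, was 32990 and 30380 in control cells against 21090 and 20330. KIF14, which works with citron kinase and PRC1 at the midbody, read 13.31 and 13.23 in control cells and 8.68 and 8.44 in PAK1 shRNA cells, a log2 fold change of -4.71. KIF23 (MKLP1) forms centralspindlin with RACGAP1. It read 14.36 and 14.42 against 11.05 and 10.96, a log2 fold change of -3.38. KIF20B (MPP1) is another midzone motor of cytokinesis. It read 11.48 and 11.46 against 8.32 and 8.36, a log2 fold change of -3.13. The arrays of a group lay close together in these 4 genes, and the groups did not overlap.

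The motors that build a bipolar spindle fell with them. KIF11 (Eg5), the motor that slides antiparallel microtubules and drives the poles apart, read 13.39 and 13.42 in control cells and 9.23 and 9.15 in PAK1 shRNA cells, 18.6-fold lower (log2 fold change -4.21, standard error 0.07, limma adjusted p = 3.23e-07). KIF15, which can stand in for KIF11, read 11.40 and 11.39 against 7.33 and 7.26, a log2 fold change of -4.10. Both genes carry a CHR just before the start, at -28 and -35. KIFC1 (HSET) walks toward the minus end and gathers microtubules and extra centrosomes into poles. It read 10.89 and 10.98 against 7.49 and 7.19, a log2 fold change of -3.59, with the wider spread between the PAK1 shRNA arrays.

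The chromokinesins, which bind chromosome arms, were lower too. KIF4A, which also sets the length of the central spindle with PRC1, read 12.12 and 12.11 in control cells and 7.96 and 7.83 in PAK1 shRNA cells, a log2 fold change of -4.22. Its probes may also take up signal from KIF4B, a near-identical intronless copy that has no probe under its own name here. KIF22 (Kid), which pushes chromosome arms away from the poles, read 12.60 and 12.67 against 9.47 and 9.37, a log2 fold change of -3.21.

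Motors that act on microtubule ends moved less evenly. KIF18A, which damps the swings of aligned chromosomes, read 10.79 and 10.86 in control cells and 8.83 and 8.90 in PAK1 shRNA cells, a log2 fold change of -1.96. KIF18B, which trims astral microtubules, read 7.02 and 7.10 in control cells, and in PAK1 shRNA cells it was not well above background, at 6.15 and 6.21. By this probe its level was at least 1.8-fold lower (limma adjusted p = 8.18e-05). A second KIF18B probe, flagged on control replicate 2, read 7.30 on the other control array and 6.92 and 7.02 in PAK1 shRNA cells. It stood for the gene when control replicate 2 was left out, with a fold change of -0.32. Over 5 other settings of background, signal column or values the KIF18B fold change was between -0.45 and -0.16, and under median centring it was -0.60, so its size depends on the probe and the processing. KIF2A, a depolymerase that is also at work outside mitosis, read 10.76 and 10.83 against 10.45 and 10.38, a log2 fold change of -0.38 (standard error 0.08, limma adjusted p = 0.00431). KIF2A had the narrowest gap of the 12, and 5504 of all genes tested had a lower fold change.

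KIF2C (MCAK), the depolymerase of the centromere, and KIF2B were not among the 12. The only spot of KIF2C carried a background flag on control replicate 1, where its local background was 57 beside an array median of 46, so it had no value on all 4 arrays. In a setting added after this was seen, in which flagged spots were kept when their local background was at most 100, KIF2C read 14.33 and 14.34 in control cells and 9.92 and 9.74 in PAK1 shRNA cells. It was then 22.7-fold lower (log2 fold change -4.51, standard error 0.09, limma adjusted p = 3.01e-07 over 21996 genes). The raw signal of this spot, not scaled between arrays, was 26880 and 21750 in control cells, against 806.7 and 698.9 in PAK1 shRNA cells. KIF2B, printed 10 times, was not well above background on any array.

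Transport kinesins went both ways. Of 15 genes 14 could be tested, and 4 passed as lower (32.0% of all genes), 7 as higher (30.7% of all genes) and 3 did not pass. Their median log2 fold change was 0.17 (range -1.16 to 1.03). Past 2-fold there was 1 lower gene, KIF3A (9.14% of all genes), and 1 higher gene, KIFC3 (8.74% of all genes). Both PAK1 shRNA arrays lay below both control arrays in 6 of the 14 (39.9% of all genes) and above them in 7 (41.8% of all genes). The median moved to 0.27 under median centring and to 0.29 with the processed signal scaled to its 75th percentile, settings that also moved the median of all genes to 0.14 and 0.12. The 2 classes overlapped in fold change, since KIF3A was lower by more than KIF2A was.

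**Figure D2:**
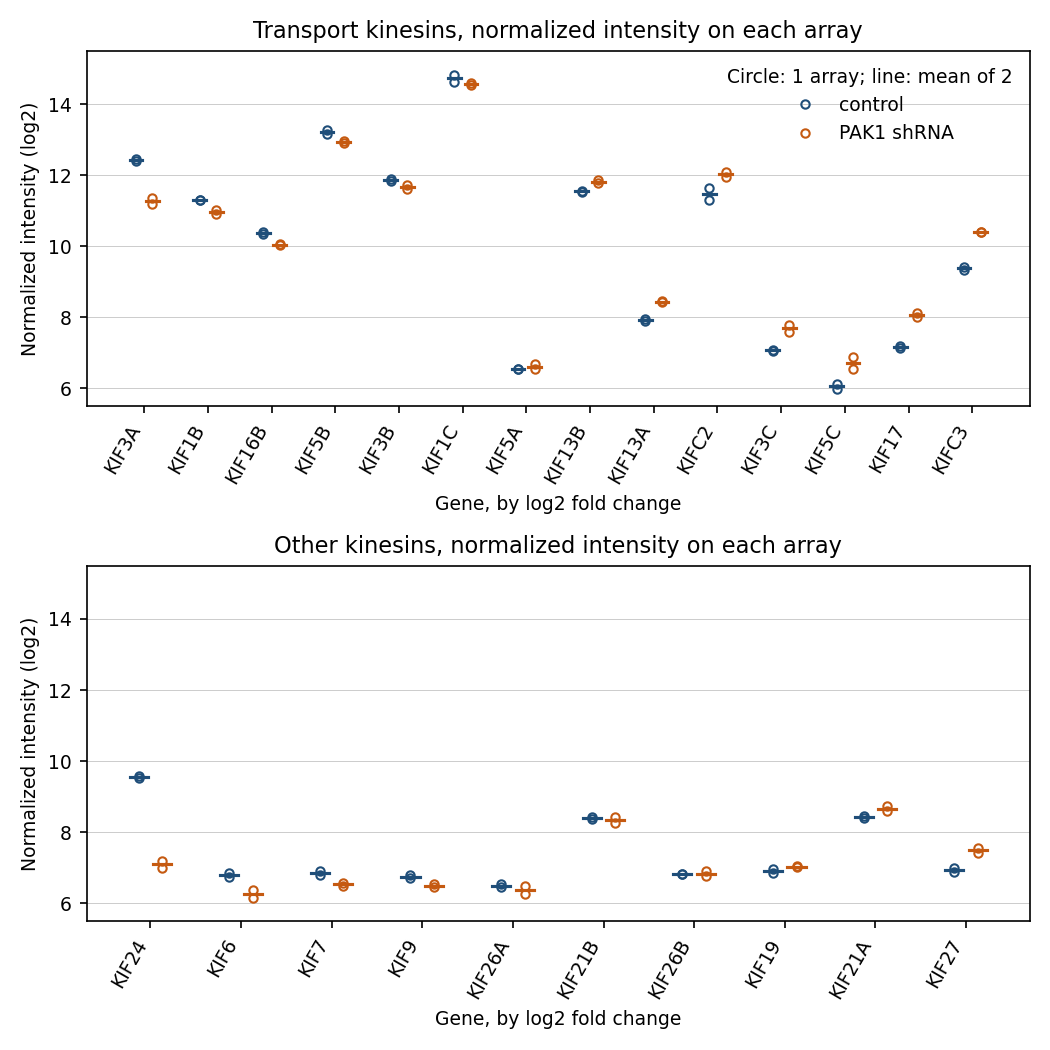
Normalized log2 intensity (vertical axes) of the 14 tested transport kinesins (upper panel) and the 10 other tested kinesins (lower panel) on each of the 4 arrays, ordered by log2 fold change. Circles are single arrays (2 control in blue, 2 PAK1 shRNA in orange) and short lines are group means. Most groups lie close together, with KIF3A (-1.16), KIFC3 (1.03) and KIF24 (-2.46) the widest apart; KIF6, KIF9, KIF26A, KIF26B, KIF21B and KIF5A changed sign in at least 1 other setting.

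Of the subunits of the heterotrimeric motor that drives cargo up the cilium, only KIF3A passed as lower. KIF3A read 12.40 and 12.46 in control cells and 11.35 and 11.20 in PAK1 shRNA cells, 2.23-fold lower (log2 fold change -1.16, standard error 0.08, limma adjusted p = 4.01e-05). Its partner KIF3B, with which it forms the motor pair, read 11.84 and 11.90 against 11.73 and 11.60, and its fold change of -0.21 did not pass (adjusted p = 0.0611 in limma). KIF3B did pass as lower under median centring (-0.29) and with the normexp fit on all spots (-0.19). The adaptor of the pair, KIFAP3, had a fold change of -0.08 (limma adjusted p = 0.414). KIF3C, the alternative partner of KIF3A, read 7.09 and 7.05 against 7.60 and 7.78, a fold change of 0.62. The KIF3C call was lost with the variance of each gene taken alone. KIF17, a homodimeric motor of cilia and dendrites, read 7.13 and 7.19 against 7.998 and 8.123, a fold change of 0.90. So within this family KIF3A fell while KIF3C and KIF17 rose, and the differences between members were not tested.

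The heavy chains of conventional kinesin also differed. KIF5B, the form found in most tissues, read 13.16 and 13.28 in control cells and 12.91 and 12.97 in PAK1 shRNA cells, a log2 fold change of -0.28. This call was lost in 6 other settings, among them without PAK1 shRNA replicate 1 (-0.24), without PAK1 shRNA replicate 2 (-0.31) and without control replicate 2 (-0.22). A second KIF5B probe, without a value on control replicate 1, read 10.36 on control replicate 2 and 10.42 and 10.46 in PAK1 shRNA cells. By that probe the level was not lower. KIF5C, known mainly from neurons, read 6.53 and 6.89 in PAK1 shRNA cells and 6.14 and 5.98 in control cells, where it was not well above background. It was at least 1.46-fold higher in this processing (limma adjusted p = 0.00419). Its log2 fold change ran from 0.33 with the normexp fit on all spots to 3.84 with the processed signal, it was 0.49 without PAK1 shRNA replicate 2, and the call was lost with the variance of each gene taken alone. KIF5A, also neuronal, did not pass, at 6.54 and 6.54 against 6.54 and 6.68. The 3 genes are close relatives, so some signal may be shared between their probes.

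The vesicle motors of the KIF1, KIF13 and KIF16 group changed by less than 2-fold. KIF16B, a motor of early endosomes, read 10.34 and 10.40 in control cells and 10.06 and 10.02 in PAK1 shRNA cells, a log2 fold change of -0.33. KIF13A, which carries mannose 6-phosphate receptor vesicles and recycling endosomes, read 7.89 and 7.95 against 8.46 and 8.43, a fold change of 0.52. KIF13B, which carries the scaffold DLG1, read 11.57 and 11.54 against 11.86 and 11.78, a fold change of 0.27. This rise no longer passed under median centring (0.18), without PAK1 shRNA replicate 1 (0.24) or without control replicate 2 (0.25). KIF1C, known from podosomes and from transport between Golgi and ER, read 14.61 and 14.83 against 14.60 and 14.53 and did not pass (-0.16), although it did without control replicate 1 (-0.27). KIF1A, a neuronal carrier of synaptic vesicle precursors, was well above background on 1 control array only and was not tested.

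The KIFC motors, which are relatives of KIFC1, were higher where KIFC1 was lower. KIFC3, a minus-end motor that takes part in adherens junctions, read 9.32 and 9.43 in control cells and 10.41 and 10.40 in PAK1 shRNA cells, 2.04-fold higher (log2 fold change 1.03, standard error 0.08, limma adjusted p = 4.32e-05). KIFC2, known mainly from neurons, read 11.63 and 11.31 against 12.10 and 11.95, a fold change of 0.56. The control arrays of KIFC2 had a wide spread (SD 0.22, n = 2). Both PAK1 shRNA arrays still lay above both control arrays, as in 41.8% of all genes. The KIFC2 call was lost with the variance of each gene taken alone.

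Of the other 12 kinesins 10 were tested, and 4 passed as lower (32.0% of all genes), 2 as higher (30.7% of all genes) and 4 did not pass, shares near those of all genes, with a median log2 fold change of -0.09. KIF24, a centriolar depolymerase that keeps cilia from forming, read 9.53 and 9.57 in control cells and 7.20 and 6.99 in PAK1 shRNA cells, 5.49-fold lower (log2 fold change -2.46, standard error 0.09, limma adjusted p = 2.87e-06). It was the only kinesin outside the mitotic class with a fold change below that of KIF18A, and of the 8 genes of its class with a promoter entry it was the only one with a CHR. KIF7, a regulator of Hedgehog signalling at the ciliary tip, had a fold change of -0.32, and its relative KIF27 one of 0.55. KIF27 lost its call with the variance of each gene taken alone. The call of KIF7 was lost under median centring (-0.046), with the variance of each gene taken alone, without PAK1 shRNA replicate 2 (-0.29) and without control replicate 2 (-0.27). KIF9, known from motile cilia, had -0.25 but 0.025 under median centring. It no longer passed without PAK1 shRNA replicate 1 (-0.30), PAK1 shRNA replicate 2 (-0.22) or control replicate 1 (-0.19). The KIF9 call was also lost with the normexp fit on all spots (-0.13) and with the variance of each gene taken alone. KIF21A, which slows microtubule growth, had 0.24 (limma adjusted p = 0.0413), a call that was lost in 6 other settings, among them without PAK1 shRNA replicate 2 (0.17), control replicate 1 (0.25) and control replicate 2 (0.22). KIF19, KIF21B, KIF26A and KIF26B did not pass, with fold changes between -0.11 and 0.11. KIF12 and KIF25 were not well above background on any array.

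Other probes of the same genes were read where the array had them. Of the 41 genes 14 had more than 1 probe, 12 of these had at least 2 probes with a value on all 4 arrays, and in 3 of the 12 the signs of the probes disagreed. In KIF22 the probes at chr16:29815326-29815385 and chr16:29815336-29816143 (hg19) gave log2 fold changes of -3.21 and -3.24, while the probe at chr16:29810045-29810104 read 8.02 and 8.03 in control cells and 8.23 and 8.16 in PAK1 shRNA cells, a fold change of 0.17. In KIF1B, a carrier of mitochondria and vesicles, the chosen probe (chr1:10368324-10368383) read 11.29 and 11.30 against 10.92 and 11.02, a fold change of -0.33. This call was lost with the variance of each gene taken alone and without PAK1 shRNA replicate 1 (-0.27). The probe with the highest coordinate (chr1:10441250-10441309) gave -0.78 and that with the lowest (chr1:10364547-10364606) gave 0.18, so the direction for KIF1B held for 3 of its 4 probes. The dim probes of KIF19 gave -0.21 and 0.11. The second probes of KIF4A, KIF20B and KIF23 gave -2.97, -2.69 and -3.22 and kept the direction of the first. KIF6, a ciliary motor, was uncertain. Its chosen probe read 6.74 and 6.84 in control cells and 6.36 and 6.16 in PAK1 shRNA cells, the last not well above background (fold change -0.53). Another KIF6 probe read 6.61 and 6.71 in control cells and 7.56 in PAK1 shRNA replicate 1, with a flagged background on the other array. This probe stood for KIF6 in 5 other settings and without PAK1 shRNA replicate 2, and in those the gene was called higher (0.56 to 2.14).

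**Figure D3:**
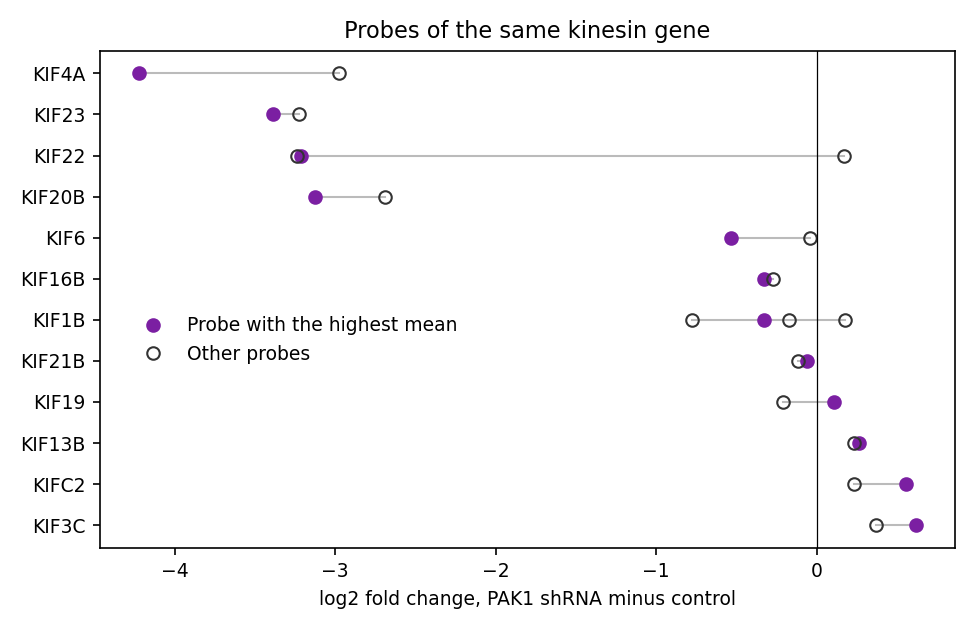
Log2 fold change, PAK1 shRNA minus control (horizontal axis), of every probe with a value on all 4 arrays, for the 12 kinesin genes with at least 2 such probes. Filled circles are the probe with the highest mean, which stood for its gene, and open circles are the other probes. Probes lie on both sides of 0 in KIF22, KIF1B and KIF19.

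The genes that mitotic kinesins work with moved in the same direction. Of 16 such partners 15 passed as lower (32.0% of all genes), by at least 2-fold each (9.14% of all genes), with a median log2 fold change of -3.55. CENPE, the kinetochore kinesin that lacks a KIF name, read 13.05 and 12.95 in control cells and 8.42 and 8.18 in PAK1 shRNA cells (log2 fold change -4.70). Cyclin B1 (CCNB1), which drives entry into mitosis with CDK1, had -4.98 and HMMR, a spindle assembly factor, had -4.76. NUMA1, which anchors dynein at the poles, did not pass (0.08, limma adjusted p = 0.483). All 12 markers of proliferation were lower as well, by at least 2-fold each, beside the same 2 shares of all genes, with a median of -2.88, among them MKI67 (-4.31) and TOP2A (-4.84). The mean log2 level of these 12 markers was 13.4 and 13.5 in control cells against 10.4 and 10.3 in PAK1 shRNA cells, and their part in the lower level of the mitotic kinesins was not tested.

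**Figure D4:**
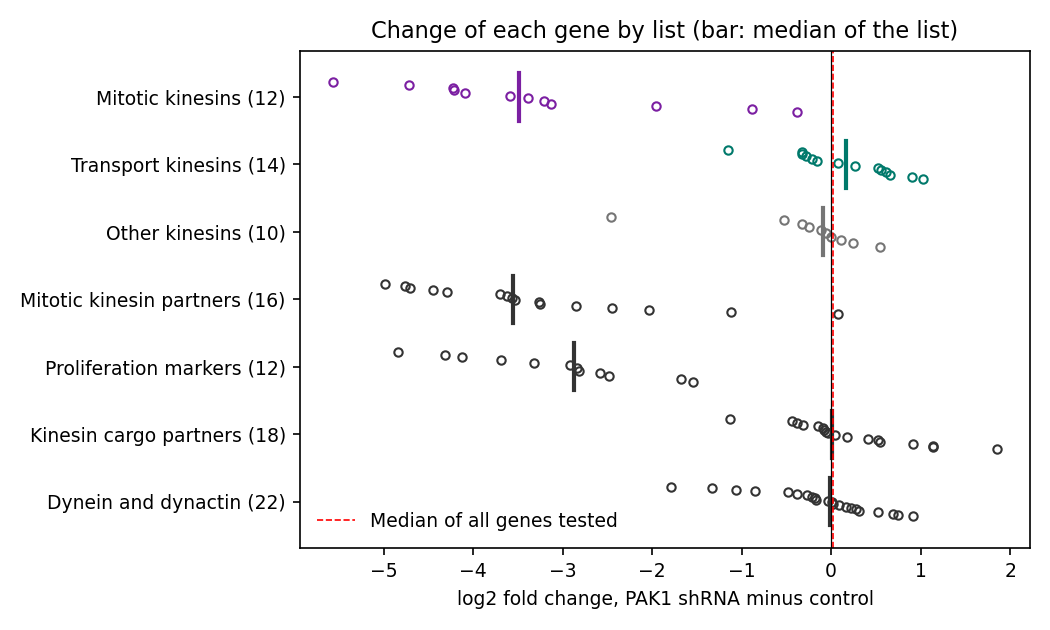
Log2 fold change, PAK1 shRNA minus control (horizontal axis), of each tested gene (circle) in the 3 kinesin classes and 4 lists of related genes, with the number of tested genes in brackets. Thick bars mark list medians and the dashed line the median of all genes tested (0.017). Mitotic kinesins (-3.49), their partners (-3.55) and proliferation markers (-2.88) lie left of the others, whose medians are between -0.09 and 0.17.

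Of 18 tested partners of transport kinesins, 4 passed as lower, where 32.0% of all genes did, and 7 as higher, where 30.7% did, with a median of 0.004. The kinesin light chains, which link KIF5 to its cargo, were lower where tested, a call that KLC4 lost under median centring (-0.21) and with the variance of each gene taken alone. KLC2 read 13.32 and 13.43 in control cells and 12.25 and 12.23 in PAK1 shRNA cells (log2 fold change -1.13), KLC3 had -0.44 and KLC4 -0.38. KLC1 lacked a value on control replicate 1 and was not tested, at 10.87 against 10.26 and 10.26. The adaptor FEZ1, not well above background in the controls, was higher by at least 3.51-fold in this processing. Its log2 fold change was 1.01 with the normexp fit on all spots and 5.36 with the processed signal. The JNK scaffold SPAG9 (JIP4), which can recruit kinesin-1, had 1.14.

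Dynein, the motor that walks the other way, and its cofactor dynactin were read through a list of 22 genes, all of them tested. Of these 7 passed as lower (32.0% of all genes) and 7 as higher (30.7% of all genes), much as over all genes, with a median of -0.01. The largest falls were those of the light chain DYNLL1 (-1.79), the dynactin subunit DCTN3 (-1.33) and the adaptor BICD2 (-1.06). BICD2 lost its call with the variance of each gene taken alone. The largest rises were those of DYNLT1 (0.92), DYNC1LI2 (0.75) and DYNLL2 (0.69).

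PAK1 itself read 11.19 and 11.28 in control cells and 10.44 and 10.51 in PAK1 shRNA cells, 59.1% of the control level (log2 fold change -0.76, standard error 0.08, limma adjusted p = 0.000177). Markers were read to check the cells. The 7 tested basal epithelial genes had mean levels of 15.1 and 15.0 in control cells against 14.7 and 14.7. Of these 4 were lower (32.0% of all genes) and 2 higher (30.7% of all genes). LAMB3, also on the basal list, lacked a value on PAK1 shRNA replicate 2 and was not tested. It read 17.11 and 16.93 in control cells against 18.19 on PAK1 shRNA replicate 1. Of the fibroblast genes, DCN, LUM and COL1A1 were higher (30.7% of all genes) and PDGFRB lower (32.0% of all genes). The mean level of the 4 tested rose from 8.59 and 8.37 to 9.20 and 9.23, while COL1A2 and COL3A1 were not well above background on any array. Of the 4 tested leukocyte genes LCP2 was higher (30.7% of all genes), by at least 2.11-fold, and the mean level went from 7.002 and 7.031 to 7.34 and 7.42. CD14, without a value on PAK1 shRNA replicate 2, read 14.22 and 14.16 against 15.42. The part of these markers in the changes of the kinesins was not tested.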

How the data were processed

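For 4 one-colour arrays (Agilent design 026652) the authors deposited spot intensity values from Agilent Feature Extraction 9.5.3.1, and a table of log2 values, per the file headers and labels, that was used as an alternative. The mouse arrays were not analysed here. Probe coordinates are those of the files (hg19), and gene names those of the array design.

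The methods name normexp, quantile normalization and limma. Mean signals were corrected with normexp (offset 50), leaving out spots whose background was flagged on that array, because a few with a very high local background move the fit on both control arrays. Control spots were then dropped, arrays quantile normalized, outlier spots left out, and spots of a probe averaged. A probe needed a value on all 4 arrays and signal well above background on both arrays of 1 group or of both, and each gene was read from its brightest probe. Genes were tested with limma 3.58.1 in R 4.3.3, on 21250 genes, a procedure tested on simulated data. From 78.8% to 83.1% of probes were well above background. The number of arrays limits the precision, and all 4 lay on 1 slide. A group at background gives a bound, from the higher of the gene's own signal and the lowest signal well above background on each array.

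Members, classes and lists were chosen with earlier results of these data known. The rule was to name every kinesin, with array values for mitotic and transport kinesins that passed or whose probes disagreed in sign, and the 3 largest falls and rises of each list, CENPE, KIFAP3, KLC1 to KLC4 and PAK1. The values of 1 gene that this rule picks are not reported here. KIF3B, KIF1C, KIF5A, KIF24, KIF6, KIF2C, NUMA1, MKI67 and TOP2A are given beside this rule or as examples. Other settings changed the normalization, the background correction, the signal column, the filter and flags, the probe rule, the test and its threshold, used a replicate block, or left out each array.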

Additional observations from a re-analysis of the deposited data

How the results depend on the processing

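For the 12 tested mitotic kinesins, 215 values under alternatives all kept their direction and their side of the threshold. Over all 36 tested kinesins 590 of 644 values did so, 32 no longer passed the threshold, 7 newly passed it and 15 changed sign, and the cause was not tested unless given here. KIF6 was 1.02 with flagged background left out of the normexp fit only, 0.83 without background correction, 0.56 with the fit on all spots, 2.14 with the processed signal and 1.19 in the authors' values, where a brighter probe stood for the gene. KIF9 was 0.025 and KIF26A 0.21 under median centring, and KIF26B was -0.12 without background correction, -0.22 with the processed signal and -0.20 in the authors' values. With each array left out in turn, KIF6 ranged from -0.65 to 0.93, KIF21B from -0.16 to 0.035, KIF26A from -0.24 to 0.006, KIF26B from -0.066 to 0.074 and KIF5A from -0.003 to 0.15.

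The median of the mitotic kinesins was -3.35 without background correction, -3.05 with the fit on all spots, -3.66 with an offset of 16, -4.18 with the processed signal and -3.74 in the authors' values, and -3.61 to -3.40 with each array left out. That of the transport kinesins was 0.27 under median centring, 0.29 with the processed signal, 0.071 with no filter and 0.071 with all 4 arrays above background, and 0.068 to 0.19 with each array left out. A fold of at least 2 left 12 kinesins called lower (9.14% of all genes) and 1 higher (8.74% of all genes), and 1 transport kinesin each way. The unpaired t-test takes the variance of each gene alone, and the study's methods name it in general but not for the arrays. After Benjamini-Hochberg adjustment it left 15 kinesins called lower and 4 higher, and of the transport kinesins 2 lower and 4 higher. Over both directions it then called 8856 of the 21250 genes. With each array left out 2 to 5 transport kinesins were called lower, 2 of them without PAK1 shRNA replicate 1, where the lone array is taken to vary as the other groups do. The deviations of arrays with the same number did not go together (r = 0.012 over 21250 genes). With the replicate block 13603 genes in place of 13328 were called. Of the kinesins 20 were lower and 9 higher, the same counts as without the block, where 32.0% and 30.7% of all genes were. At an unadjusted p under 0.05 the unpaired t-test called 11682 genes, 6038 lower and 5644 higher. Among them were 18 kinesins lower and 6 higher.

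Signal over background limits the dim kinesins, among them KIF18B, KIF5C, KIF6 and KIF26A.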
